A study of Mus musculus with 2 samples.

Results

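The genes described here encode 10 C-type lectin receptors of myeloid cells: Clec4a1, Clec4a3, Clec4d, Clec4e, Clec4n, Clec5a, Clec7a, Clec10a, Clec12a and Cd209a. They were taken by symbol, and all 10 were found among the 31192 genes of the deposited matrix. The cells came from hearts of Cdh5-CreERT2;REFLEX mice that had received tamoxifen and had undergone transverse aortic constriction (TAC), an operation that narrows the aorta and loads the left ventricle with pressure. Cdh5-CreERT2 is a tamoxifen-inducible Cre recombinase driven by the promoter of an endothelial cadherin gene, and REFLEX is a reporter whose GFP, per the labels, marks cells that interact. Cells sorted as CD45+ GFP+, CD45+ GFP-, CD45- GFP+ and CD45- GFP- were pooled and 20000 of them were loaded on the BD Rhapsody platform, which gave 1 transcriptome library of 878 cells, with 1 hashtag library beside it. All cells therefore shared the operation, the driver and the reporter, no library of unoperated hearts was analysed here, and the age, the sex and the number of the mice and the time after TAC are not given in the sources used here.

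C-type lectin receptors bind sugars, lipids and products of damaged cells, and many of them were first studied as sensors of fungi and mycobacteria. Activating members signal through the kinase Syk, either by a motif in their own tail, as in Clec7a, or through adaptors: Clec4e, Clec4d and Clec4n pair with the Fc receptor gamma chain (Fcer1g), and Clec5a pairs with DAP12 (Tyrobp). Syk then acts through a complex with Card9, Bcl10 and Malt1 on NF-kappaB and on cytokine genes. Clec5a also pairs with a further adaptor, DAP10 (Hcst). Clec12a carries an inhibitory motif that recruits the phosphatases Ptpn6 and Ptpn11, while Clec10a and Cd209a are best known as uptake receptors of dendritic cells and macrophages. In injured tissue, ligands released by dying cells, such as Sap130 for Clec4e and uric acid crystals for Clec12a, are known to engage some of these receptors.

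In the mouse genome, 8 of the 10 genes lie on chromosome 6, where Clec4a1 and Clec4a3 are neighbours and Clec4n, Clec4d and Clec4e lie side by side. Clec10a lies on chromosome 11 next to Mgl2, and Cd209a on chromosome 8. Promoter sequence from RefSeq (build GRCm38.p6; the authors' build was GRCm39, so these positions are not those of the deposited counts) was matched for 8 members, and Clec4n and Clec10a had no entry. The 250 bases before the start are shown for both neutrophil-high neighbours, for Clec5a, for the monocyte-high pair and for Cd209a, since these 6 genes show the contrasting patterns described below. Capitals mark GAGGAA, the core letters bound by the myeloid factor PU.1, TTGCNNAA, a pattern of the C/EBP type, and the kappaB-type pattern GGG, any 5 bases, CC, each on either strand. The windows are those of Clec4e (chr6:123289872-123290121, minus strand), Clec4d (chr6:123261857-123262106, plus strand), Clec5a (chr6:40585806-40586055, minus strand), Clec4a1 (chr6:122921598-122921847, plus strand), Clec4a3 (chr6:122952394-122952643, plus strand, the second of its windows) and Cd209a (chr8:3748985-3749234, minus strand).
Clec4e: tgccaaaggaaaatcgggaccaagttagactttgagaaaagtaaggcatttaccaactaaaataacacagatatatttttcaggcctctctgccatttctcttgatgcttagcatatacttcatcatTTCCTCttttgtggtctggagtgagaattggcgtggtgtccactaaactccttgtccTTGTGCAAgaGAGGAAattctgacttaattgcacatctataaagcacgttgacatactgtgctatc
Clec4d: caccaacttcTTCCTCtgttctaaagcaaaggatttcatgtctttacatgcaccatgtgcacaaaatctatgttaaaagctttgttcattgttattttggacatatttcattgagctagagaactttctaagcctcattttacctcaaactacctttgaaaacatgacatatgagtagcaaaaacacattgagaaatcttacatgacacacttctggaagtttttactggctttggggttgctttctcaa
Clec5a: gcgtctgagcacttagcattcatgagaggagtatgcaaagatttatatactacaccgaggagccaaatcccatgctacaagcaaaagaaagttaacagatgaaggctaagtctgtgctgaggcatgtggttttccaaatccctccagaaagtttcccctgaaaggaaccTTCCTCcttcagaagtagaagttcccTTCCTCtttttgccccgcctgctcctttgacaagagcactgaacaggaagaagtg
Clec4a1: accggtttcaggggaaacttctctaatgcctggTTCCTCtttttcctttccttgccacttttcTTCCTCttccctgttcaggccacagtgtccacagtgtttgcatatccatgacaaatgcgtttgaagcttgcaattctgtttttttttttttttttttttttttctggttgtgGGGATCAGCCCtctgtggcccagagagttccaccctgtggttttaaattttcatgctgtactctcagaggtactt
Clec4a3: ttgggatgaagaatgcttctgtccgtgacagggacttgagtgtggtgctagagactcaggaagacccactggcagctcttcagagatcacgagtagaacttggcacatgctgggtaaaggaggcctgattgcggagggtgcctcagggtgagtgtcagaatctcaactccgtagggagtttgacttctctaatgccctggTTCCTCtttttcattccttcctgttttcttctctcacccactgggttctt
Cd209a: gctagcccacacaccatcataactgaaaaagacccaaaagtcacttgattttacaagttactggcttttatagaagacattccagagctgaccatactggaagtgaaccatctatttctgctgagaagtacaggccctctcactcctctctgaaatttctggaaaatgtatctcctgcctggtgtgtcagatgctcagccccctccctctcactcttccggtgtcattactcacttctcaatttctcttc
GAGGAA was present for 7 of the 8 matched members, all but Cd209a, and for 25.9% of the 27025 genes with such windows. For Clec4a3 it lay in 1 of its 2 windows, the one shown, and the other window held none of the marked patterns. TTGCNNAA was present for 2 members, Clec4e and Clec12a, and for 10.8% of all genes. The kappaB-type pattern was present for 1 member, Clec4a1, where its matches on the 2 strands overlap by all but 1 base at each end, and for 48.7% of all genes. In Clec4e the C/EBP-type letters and a PU.1 core lie next to each other, 2 bases apart. The matches describe letters in these windows, and no binding was measured.

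Mitochondrial counts made up over 25% in 21 of the 878 cells, which were dropped, and the 857 others had a median of 77839 estimated counts per cell. The cells were clustered without the lectin genes and without the lists of pathway genes used below, and each cluster was named from marker genes. This gave 101 Icam1-high neutrophil-like cells, 160 other neutrophil-like cells, 31 conventional dendritic-like cells, 45 macrophage-like cells, 81 patrolling monocyte-like cells, 98 classical monocyte-like cells, 160 B cell-like, 103 T cell-like and 27 NK cell-like cells. The neutrophil cluster called Icam1-high was the one with the higher Icam1 level, and Il23a, Gpr84 and Icam1 led it. A cluster of 18 cells led by interferon-response genes (Ifit1, Ifit3, Rsad2) and a cluster of 33 cells led by Plcb1, whose median mitochondrial share was 7.99%, did not meet the rule for a name and stayed unnamed. Since the lectin genes did not shape the clusters, their levels could be compared between them, although Icam1 itself chose the name of its cluster. Defining markers separated the named classes: the neutrophil list summed to 49174 CPM (counts scaled to a common total per class) in Icam1-high and 140930 CPM in other neutrophil-like cells, against 2053 CPM in classical monocyte-like cells and 464 CPM in macrophage-like cells. The macrophage list summed to 22260 CPM in macrophage-like cells, against 8011 CPM in classical and 6716 CPM in patrolling monocyte-like cells. The conventional dendritic list summed to 16344 CPM in dendritic-like and 3605 CPM in macrophage-like cells, and to 8124 CPM in B cell-like cells, which share its MHC class II genes.

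A level is the summed count of a gene over the cells of a class in CPM, with an exact 95% Poisson interval in parentheses where given. A member was called higher or lower between classes when the ratio of its levels reached 2 in either direction and its exact 95% interval excluded 1. With 1 library there is no replicate of any class and no p-value: intervals cover counting error only, and are too narrow if the counts are reads and not molecules, which the sources used here do not state. Shares of cells are given after thinning every cell to 25000 counts, since median depth differed between classes, and the unthinned share is given beside the main ones. Each ratio was also computed in 7 alternative analyses that differed in filtering, clustering or summing, and these are given beside a result only where they end or turn the call or move the ratio by over 1.5 times. All 10 receptors had at least 50 counts over both classes in 4 of the 6 comparisons; Cd209a had fewer between the monocyte classes, and Clec10a and Cd209a between the neutrophil clusters, where they are not interpreted.

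**Figure D1:**
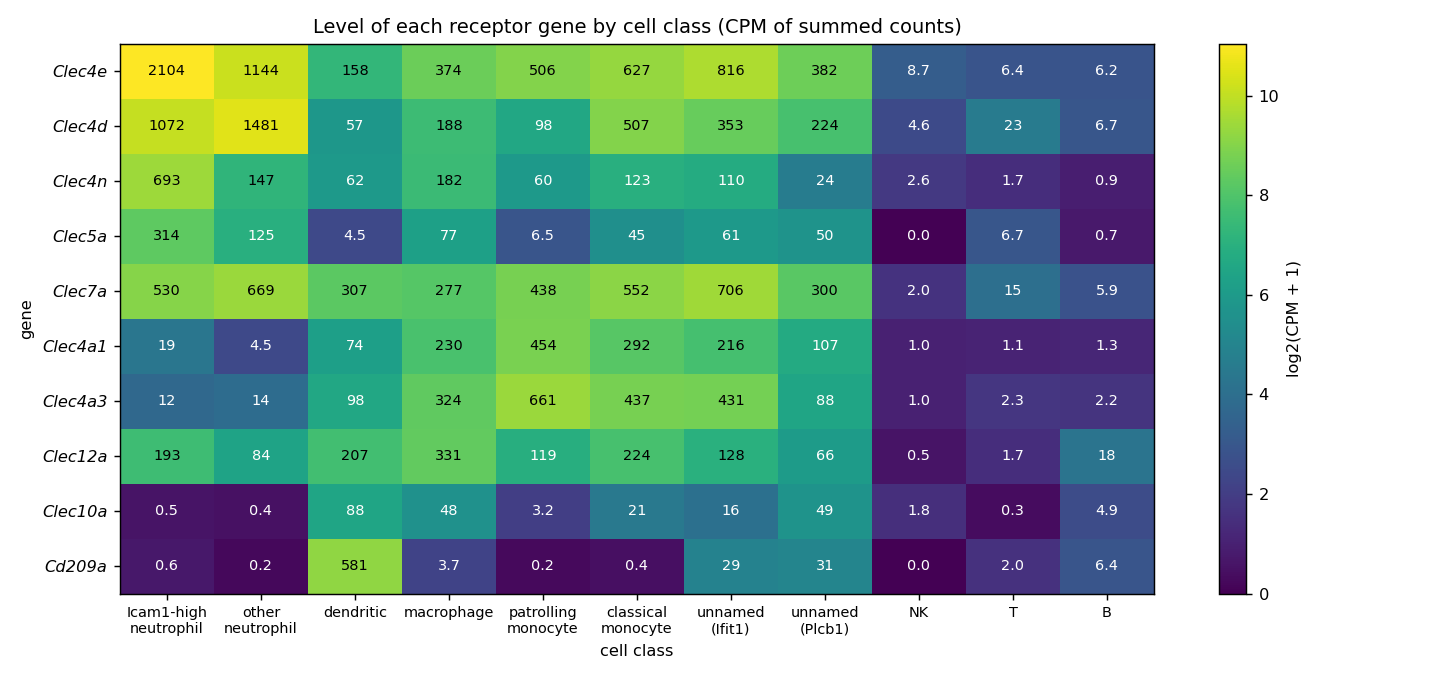
Level of the 10 receptor genes (rows) in each cell class (columns), as CPM of summed counts, with colour on a log2(CPM + 1) scale. Clec4e, Clec4d and Clec5a are highest in the neutrophil columns, Clec4a1 and Clec4a3 in the monocyte columns and Cd209a in the dendritic column, where it reaches 581 CPM. Clec4n is highest in the Icam1-high neutrophil column, while macrophage-like cells, at 182 CPM, stand above other neutrophil-like cells, at 147 CPM. The lymphocyte columns on the right hold no value above 23.1 CPM.

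All 10 receptor genes were higher in myeloid than in B, T and NK cell-like cells combined, against a background of 17.8% of 17933 genes called higher. Their median log2 ratio was 5.46, beside -0.30 over all genes tested. The 10 were listed as receptors of myeloid cells, with earlier results of these data known. Their shared direction here therefore describes the list and does not test it. The ratio was widest for Clec4a1, with 204 CPM in myeloid cells and 28.5 counts in all 290 lymphoid cells, a ratio of 170.5 (118 to 256). It was narrowest for Clec10a, with 26.8 CPM in myeloid and 2.63 CPM in lymphoid cells, a ratio of 10.2 (7.94 to 13.4). Without the top cell on each side its log2 ratio was 5.72 in place of 3.35, and Clec12a, at 4.97, was then the narrowest. Much of the lymphoid level came from single cells. In T cell-like cells 1 cell held the most counts of Clec4d, Clec4e, Clec4n, Clec5a and Clec7a, including 93.6% of those of Clec5a, and without it the summed level of all 10 members was 20.1 CPM, against 60.7 CPM with it. In B cell-like cells 1 cell held 91.8% of the Cd209a counts, 92.3% of those of Clec10a and 36.4% of those of Clec12a. Without the top cells the log2 ratios were 7.14 in place of 4.54 for Clec5a, 6.68 in place of 5.32 for Clec4d, 6.90 in place of 5.61 for Clec7a and 5.48 in place of 4.22 for Cd209a. With each cell weighted alike they were 6.74 in place of 7.41 for Clec4a1, 7.41 in place of 6.79 for Clec4e and 7.67 in place of 6.92 for Clec4n. Clec5a and Cd209a had no count in the 27 NK cell-like cells, which allows up to 1.53 CPM.

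Clec4e, which encodes Mincle, the receptor of mycobacterial cord factor and of Sap130, had its highest levels in neutrophil-like cells. It reached 2104 CPM (2068 to 2140.4) in Icam1-high and 1144 CPM (1125 to 1164) in other neutrophil-like cells. Among mononuclear phagocytes its level was 158 CPM in dendritic-like, 374 CPM in macrophage-like, 506 CPM in patrolling and 627 CPM in classical monocyte-like cells. At equal depth 81.2% of Icam1-high and 86.2% of other neutrophil-like cells had a count, against 95.9% of classical monocyte-like and 14.4% of B cell-like cells, the last being the share in cells that should lack the gene. Thus nearly every classical monocyte-like cell carried Clec4e, at a lower level than neutrophil-like cells. Unthinned, the shares were 87.1%, 91.2%, 98.0% and 34.4% in the same order, at median depths of 58736, 67738, 227150 and 67466 counts. The interferon-led unnamed cells had 816 CPM, in between neutrophil-like and classical monocyte-like cells.

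Clec4d, which encodes MCL, the partner of Mincle in a shared complex with the Fc receptor gamma chain, was likewise highest in neutrophil-like cells. It had 1072 CPM (1047 to 1098) in Icam1-high and 1481 CPM (1459 to 1503) in other neutrophil-like cells. Classical monocyte-like cells had 507 CPM, macrophage-like cells 188 CPM, patrolling monocyte-like cells 98.4 CPM and dendritic-like cells 56.8 CPM. Both neutrophil clusters lay above every mononuclear class. At equal depth 83.2% of Icam1-high and 95.6% of other neutrophil-like cells had a count, against 30.9% of patrolling monocyte-like and 10.6% of B cell-like cells; unthinned, these were 86.1%, 97.5%, 53.1% and 28.1%.

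Clec4n encodes Dectin-2, a receptor of fungal mannans that also signals through the Fc receptor gamma chain. Its level was 693 CPM (672 to 714) in Icam1-high and 147 CPM (139.7 to 154) in other neutrophil-like cells, 62.1 CPM in dendritic-like, 182 CPM in macrophage-like, 59.8 CPM in patrolling and 123 CPM in classical monocyte-like cells. Other neutrophil-like cells therefore lay within the range of the mononuclear classes, between macrophage-like and classical monocyte-like cells. Clec5a, a receptor of dengue virus that couples to DAP12 and DAP10, had 314 CPM (300.4 to 329) in Icam1-high and 125 CPM (119 to 132) in other neutrophil-like cells. Its mononuclear levels were 4.46 CPM in dendritic-like, 76.5 CPM in macrophage-like, 6.51 CPM in patrolling and 44.7 CPM in classical monocyte-like cells. In patrolling monocyte-like cells 1 cell held 93.2% of the Clec5a counts, and without it the level was 0.455 CPM. The counting intervals of Clec5a in patrolling monocyte-like and T cell-like cells overlapped.

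Set against all mononuclear phagocytes together, neutrophil-like cells had 4 members called higher, Clec5a, Clec4d, Clec4e and Clec4n, against a background of 14.5% of 15980 genes. Another 4 were called lower, Clec4a1, Clec4a3, Clec10a and Cd209a, against a background of 37.4%. The median log2 ratio of the members was -0.19, beside -0.41 over all genes tested. Clec5a averaged 191 CPM in neutrophil-like cells and 39.3 CPM in mononuclear phagocytes, a ratio of 4.86 (4.61 to 5.14). For Clec4d the levels were 1339 and 288 CPM in the same order, a ratio of 4.66 (4.56 to 4.75). The ratio of Clec4e was 3.15 (3.10 to 3.21) and that of Clec4n 2.88 (2.78 to 2.99). These 4 calls held in all 7 alternative analyses, in which the log2 ratio of Clec5a ran from 2.09 to 2.72, that of Clec4d from 2.08 to 2.45, that of Clec4e from 1.57 to 1.76 and that of Clec4n from 1.34 to 1.85.

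Among the 4 lower members, Clec10a and Cd209a had 8 and 6 counts in all 261 neutrophil-like cells. At equal depth 1.53% of neutrophil-like cells had a Clec10a count, against 1.25% of B cell-like cells, and 1.53% had a Cd209a count, against 1.88%. Neither level in neutrophil-like cells, at 0.450 CPM for Clec10a and 0.337 CPM for Cd209a, was above that of all B cell-like cells, at 4.92 and 6.41 CPM. Without the top B cell-like cell the B cell levels were 0.387 and 0.536 CPM, and each lies inside the counting interval of its gene in neutrophil-like cells. Clec4a1 had 9.61 CPM (8.22 to 11.2) in neutrophil-like cells, against 1.27 CPM in B, 1.15 CPM in T and 1.02 CPM in NK cell-like cells. Its share of cells at equal depth was 4.60% in neutrophil-like cells, against 2.50% in B, 4.85% in T and 0 in NK cell-like cells, and 5 neutrophil-like cells and 0 lymphoid cells had 10 or more counts. The level of Clec4a1 was thus above that of the lymphoid classes, while the share of cells was not above that of T cell-like cells. Clec4a3 was found in 11.1% of neutrophil-like cells, against 6.80% of T cell-like and 5.62% of B cell-like cells. Its level was 13.5 CPM in neutrophil-like cells and 392 CPM in mononuclear phagocytes, a ratio of 0.0346 (0.0303 to 0.0392). All 4 stayed lower in the 7 alternative analyses, but with at most 10% mitochondrial counts, which also regrouped the cells, the log2 ratio was -2.37 in place of -4.86 for Clec4a3, -2.83 in place of -4.80 for Clec4a1, -3.73 in place of -6.30 for Clec10a and -4.47 in place of -8.17 for Cd209a. A finer clustering gave -2.54, -2.88, -3.87 and -4.60 in the same order.

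**Figure D2:**
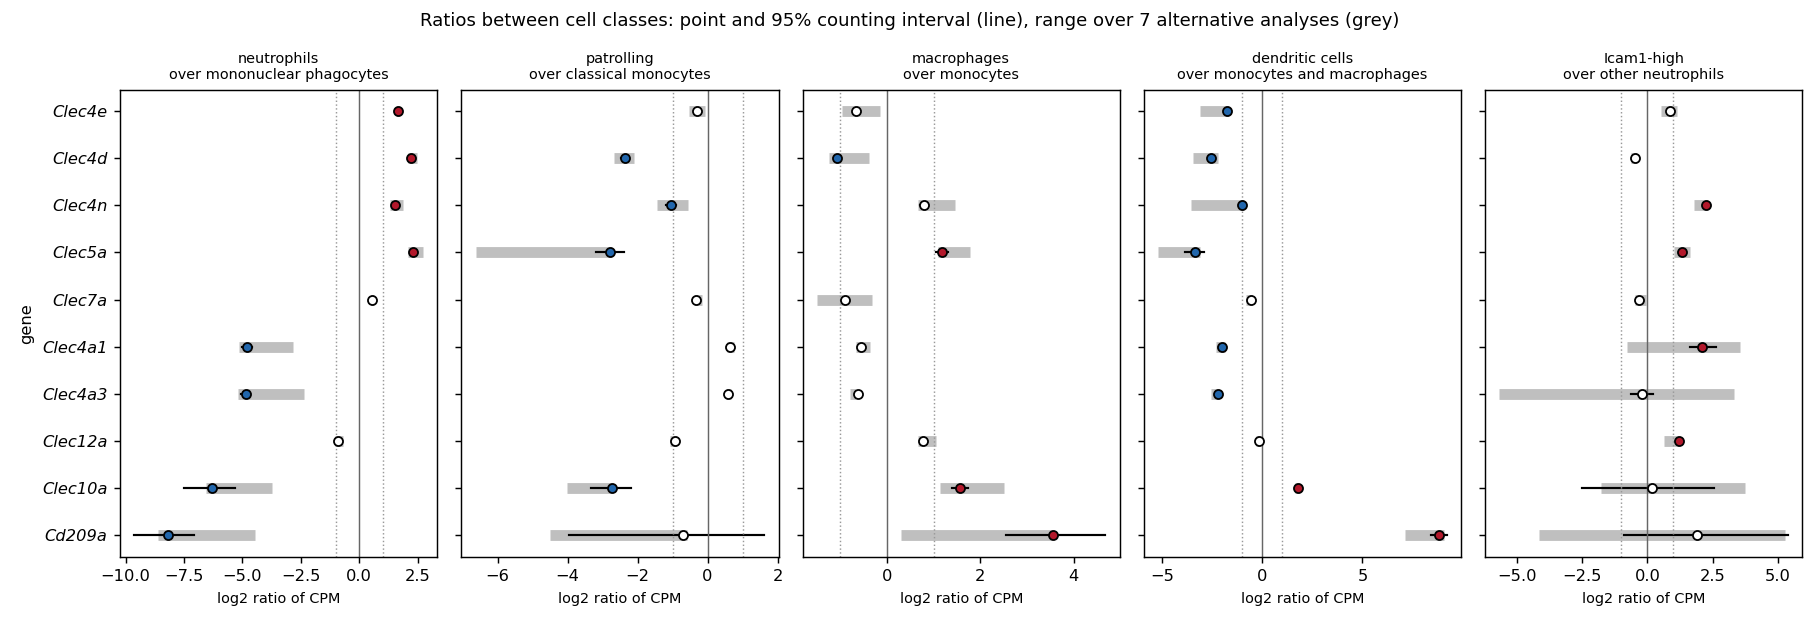
Log2 ratio of CPM for each receptor gene (rows) in 5 comparisons of cell classes (panels), with the exact 95% counting interval (line) and the range over the alternative analyses (grey bar). Red points were called higher, blue points lower and white points neither, and dotted lines mark a ratio of 2 in either direction. In the first panel Clec4e, Clec4d, Clec4n and Clec5a lie to the right of the line and Clec4a1, Clec4a3, Clec10a and Cd209a to the left; the x axes differ between panels.

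Within neutrophil-like cells, Clec4n had the widest ratio of the 10 receptors between the Icam1-high and the other cluster. The level of Clec4n was 693 CPM in Icam1-high and 147 CPM in other neutrophil-like cells, a ratio of 4.73 (4.47 to 5.01). This rank was not beyond counting error, since the ratio of Clec4a1, on far fewer counts, was 4.32 (3.09 to 6.10). At equal depth 68.3% (exact interval 58.3% to 77.2%) of Icam1-high cells had a Clec4n count, against 26.2% (19.6% to 33.8%) of other neutrophil-like cells and 1.25% of B cell-like cells, and the unthinned shares were 70.3%, 31.2% and 5.62%. The median cell had 366 CPM of Clec4n in the Icam1-high cluster and 0 in the other. The log2 ratio of Clec4n, 2.24, ran from 1.77 to 2.31 in the 6 alternative analyses that gave 2 neutrophil clusters. Clec5a was higher as well, at 314 CPM in Icam1-high and 125 CPM in other neutrophil-like cells, a ratio of 2.50 (2.34 to 2.68) that was called under all 6. By tag name, the call held in cells named A965 alone but not in those named A951 alone, with a log2 ratio of 0.99 from 239 CPM in Icam1-high and 121 CPM in other cells, or A952 alone, with 0.48 from 202 and 144 CPM.

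In all, 4 members were called higher in Icam1-high neutrophil-like cells, against a background of 26.5% of 9476 genes, and none was called lower, against a background of 12.5%. The median log2 ratio of the members was 1.04, beside 0.31 over all genes. The other called members were Clec12a, with 193 CPM in Icam1-high and 83.7 CPM in other neutrophil-like cells and a ratio of 2.31 (2.12 to 2.51), and Clec4a1, with 19.3 and 4.47 CPM and a ratio of 4.32 (3.09 to 6.10). Under a stricter limit of 10% mitochondrial counts the Clec12a call ended, with a log2 ratio of 0.65 in place of 1.21. The share of cells with Clec12a at equal depth was 29.7% in the Icam1-high and 28.8% in the other cluster. The Clec4a1 ratio rested on 11 Icam1-high and 14 other cells with a count, of which 1 held 31.9% and 1 held 46.2% of the counts of its cluster, and its log2 ratio of 2.11 became -0.77 at a finer clustering and 3.55 with the receptor genes left in the clustering. At equal depth 4.95% of Icam1-high and 4.38% of other neutrophil-like cells had a Clec4a1 count, and 4 Icam1-high cells and 1 other cell had 10 or more. Clec4a3, with 12.3 CPM in Icam1-high and 14.2 CPM in other neutrophil-like cells, was not called, but its log2 ratio of -0.20 became 3.30 with at most 10% mitochondrial counts, -3.67 without cells named doublet and -5.66 at a finer clustering, so that its direction depended on the grouping. Clec4e was 1.84 (1.79 to 1.88) times as high in the Icam1-high as in the other cluster, under the 2-fold limit, and passed it in 2 of the 6 alternatives. Clec4d, with 1072 CPM in Icam1-high and 1481 CPM in other neutrophil-like cells, and Clec7a, with 529.7 and 669 CPM, had ratios under 1 that did not reach the limit.

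Other measures moved with the Icam1-high cluster. The median mitochondrial share was 2.94% in Icam1-high and 1.84% in other neutrophil-like cells. The cardiomyocyte list summed to 182 CPM in Icam1-high and 109.9 CPM in other neutrophil-like cells, and the eosinophil list to 184 and 46.2 CPM. In the same order the dividing-cell list summed to 74.8 and 6.77 CPM, the conventional dendritic list to 227 and 118 CPM and the B cell list to 213 and 96.3 CPM. The macrophage list summed to 256 and 265 CPM. Cells that the authors named doublet made up 13 of 101 Icam1-high and 15 of 160 other neutrophil-like cells. The part of these measures in the ratios was not tested beyond the alternatives that left out cells over 10% mitochondrial counts or cells named doublet, under which Clec4n kept log2 ratios of 1.77 and 1.86.

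**Figure D3:**
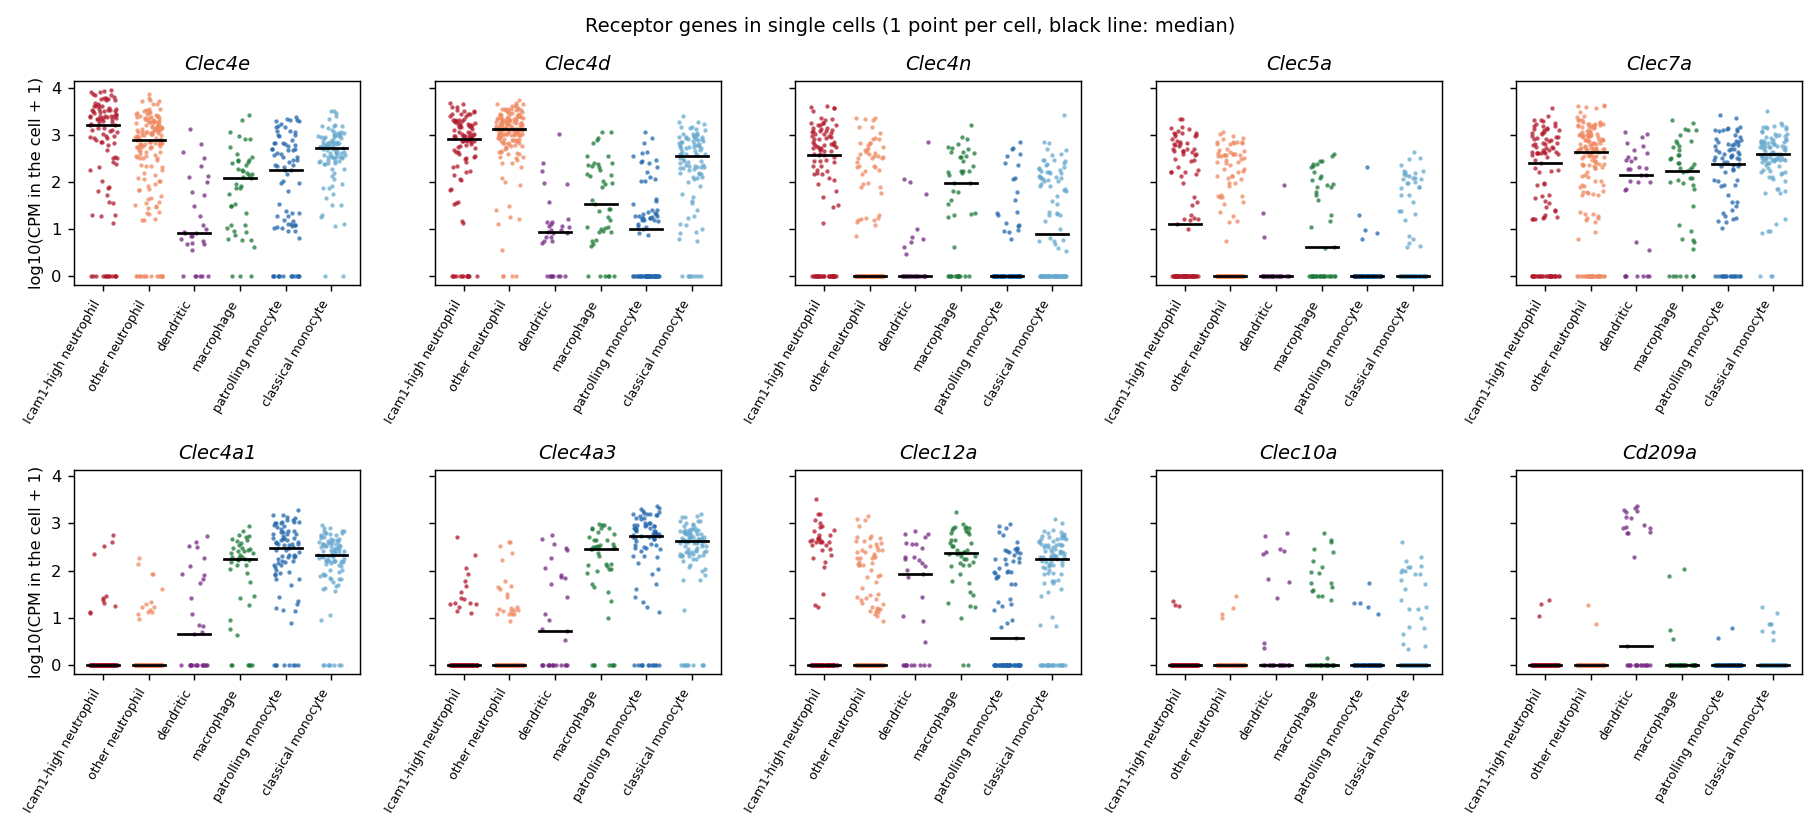
Each point is a cell, with its CPM of the receptor gene on a log10(CPM + 1) axis, for the 6 named myeloid classes in the order Icam1-high neutrophil-like, other neutrophil-like, dendritic-like, macrophage-like, patrolling and classical monocyte-like, and the black line is the median over cells. In the Clec4n panel the median is 366 CPM in the Icam1-high cluster and 0 in the other neutrophil cluster, while in the Clec4d panel it is 825 and 1308 CPM.

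Clec7a and Clec12a were spread over all myeloid classes. Clec7a, which encodes Dectin-1, the receptor of beta-glucans that signals through its own tail, had 529.7 CPM in Icam1-high and 669 CPM in other neutrophil-like cells, 307 CPM in dendritic-like, 277 CPM in macrophage-like, 438 CPM in patrolling and 552 CPM in classical monocyte-like cells. Its highest level was in the interferon-led unnamed cells, and its counting interval there overlapped that of other neutrophil-like cells. Between 65.3% of Icam1-high neutrophil-like and 91.8% of classical monocyte-like cells had a Clec7a count at equal depth. Clec7a was called in none of the 5 comparisons among myeloid classes; the nearest was that of macrophage-like with monocyte-like cells, at 277 and 519.6 CPM and a ratio of 0.532 (0.513 to 0.552). A coarser clustering brought this ratio past the limit.

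Clec12a, the inhibitory receptor of uric acid crystals, was highest in macrophage-like cells, at 331 CPM (322 to 341). It had 193 CPM in Icam1-high and 83.7 CPM in other neutrophil-like cells, 207 CPM in dendritic-like, 119 CPM in patrolling and 224 CPM in classical monocyte-like cells. The order of the levels put macrophage-like cells above all other classes, with no overlap of the counting intervals. By tag name, macrophage-like and classical monocyte-like cells had 413 and 209 CPM in A951, but 202 and 240 CPM in A965. In A952 macrophage-like cells had 291 CPM and dendritic-like cells 327 CPM. The ratio of macrophage-like over monocyte-like cells was 1.70 (1.64 to 1.77). It stayed uncalled in 6 of the 7 alternative analyses, with log2 ratios from 0.67 to 1.04. At equal depth 29.1% of neutrophil-like cells had a count, against 84.4% of macrophage-like and 6.25% of B cell-like cells. Neutrophil-like cells averaged 122 CPM and mononuclear phagocytes 229 CPM, a ratio of 0.530 (0.507 to 0.555), just short of the limit of 0.5. It passed the limit in 2 of the 7 alternative analyses, where the log2 ratio was -1.04 without cells named doublet and -1.03 without the cell with the most counts on each side.

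Clec4a1 and Clec4a3 belong to the dendritic cell immunoreceptor family and had their highest levels in monocyte-like cells. Clec4a1 had 454 CPM (440.1 to 468) in patrolling and 292 CPM (285 to 299) in classical monocyte-like cells, 230.1 CPM in macrophage-like and 74.2 CPM in dendritic-like cells. Clec4a3 had 661 CPM (644 to 678) in patrolling and 437 CPM (429 to 446) in classical monocyte-like cells, 324 CPM in macrophage-like and 97.8 CPM in dendritic-like cells. Both genes thus gave the same order of the named classes from patrolling monocyte-like to dendritic-like cells. For Clec4a1, 82.7% of patrolling and 86.7% of classical monocyte-like cells had a count at equal depth, and for Clec4a3 79.0% and 87.8%. The shares were no higher in patrolling monocyte-like cells, while the median cell was higher, with 539 CPM in patrolling and 414 CPM in classical monocyte-like cells for Clec4a3.

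In patrolling over classical monocyte-like cells, no member was called higher, against a background of 21.3% of 12366 genes, and 4 were called lower, against 17.0%. The members' median log2 ratio was -0.80, or -0.92 without Cd209a, which had under 50 counts here, beside 0.16 over all genes with at least 50. Clec4d had 98.4 CPM in patrolling and 507 CPM in classical monocyte-like cells, a ratio of 0.194 (0.181 to 0.208). Clec5a had 6.51 CPM in patrolling and 44.7 CPM in classical monocyte-like cells, a ratio of 0.146 (0.110 to 0.189), and its log2 ratio was -6.41, in place of -2.78, without the top cell on each side. Clec10a had 3.19 CPM in patrolling and 21.3 CPM in classical monocyte-like cells, a ratio of 0.150 (0.0992 to 0.218). In patrolling monocyte-like cells 1 cell held 68.8% of the Clec10a counts, and without the top cell on each side the log2 ratio was -4.02 in place of -2.74. The fourth, Clec4n, had 59.8 CPM in patrolling and 123 CPM in classical monocyte-like cells, and its call ended in 3 alternative analyses, with log2 ratios of -0.56, -0.61 and -0.91 in place of -1.04. In classical monocyte-like cells 1 cell held 24.9% of the Clec4n counts. Clec4a1, with a ratio of 1.56, and Clec4a3, with 1.51 (1.46 to 1.56), were higher in patrolling monocyte-like cells beyond counting error but under the 2-fold limit. Clec4e, with a ratio of 0.806 (0.780 to 0.833), and Clec7a, with 0.794 (0.766 to 0.823), were lower by less than the limit. Clec12a came nearer to it, at 119 CPM in patrolling and 224 CPM in classical monocyte-like cells, a ratio of 0.530 (0.496 to 0.566). It stayed uncalled in 5 of the 7 alternative analyses, with log2 ratios from -1.09 to -0.86, and under 1 of 3 tag names. The endothelial list summed to 352 CPM in patrolling and 30.2 CPM in classical monocyte-like cells, and its part in these ratios was not tested.

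Macrophage-like over monocyte-like cells had 3 members called higher, against a background of 14.1% of 13743 genes, and 1 called lower, against 16.8%. The members' median log2 ratio was 0.11, beside -0.07 over all genes. Clec10a, a galactose-type lectin, had 47.7 CPM in macrophage-like and 16.2 CPM in monocyte-like cells, a ratio of 2.95 (2.62 to 3.32), and 28.9% of macrophage-like cells had a count at equal depth, against 14.3% of classical and 3.70% of patrolling monocyte-like cells. Clec5a had 76.5 CPM in macrophage-like and 34.0 CPM in monocyte-like cells, a ratio of 2.25 (2.06 to 2.46). Both calls held in the 7 alternative analyses, and with each cell weighted alike the log2 ratios were 2.50 in place of 1.56 for Clec10a and 1.77 in place of 1.17 for Clec5a. In cells named A951 alone Clec10a was not called, at 0.15, and in those named A952 alone Clec5a was not, at 0.97. Cd209a, the third, had 3.72 CPM in macrophage-like and 0.318 CPM in monocyte-like cells. This call rested on 2 macrophage-like cells with 10 or more counts and ended under 3 alternatives, with log2 ratios of 0.47 without cells named doublet, 0.30 at a coarser clustering and 0.43 with the lectin genes left in the clustering, in place of 3.55. Clec4d was called lower, at 188 CPM in macrophage-like and 392 CPM in monocyte-like cells, a ratio of 0.479 (0.458 to 0.500) close to the limit, and kept the call in 1 of 7 alternatives, with log2 ratios from -1.24 to -0.39. Clec4n had 182 CPM in macrophage-like and 105 CPM in monocyte-like cells, under the limit in the main comparison and over it in 4 of the 7 alternatives, with log2 ratios from 0.66 to 1.46. The conventional dendritic list summed to 3605 CPM in macrophage-like cells, against 442 CPM in patrolling and 1048 CPM in classical monocyte-like cells, and its part in the higher Clec10a and Cd209a was not tested. The platelet list summed to 3118 CPM in macrophage-like and 14.1 CPM in classical monocyte-like cells, a list that includes Pf4, a leading gene of the macrophage cluster.

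Cd209a, a mouse relative of the human receptor DC-SIGN, was found almost solely in dendritic-like cells, which held 94.5% of its counts. Its level was 581 CPM (566 to 597) in dendritic-like cells, against 3.72 CPM in macrophage-like, 0.221 CPM in patrolling and 0.356 CPM in classical monocyte-like cells, and 0.649 CPM in Icam1-high and 0.172 CPM in other neutrophil-like cells. The ratio of dendritic-like to monocyte-like and macrophage-like cells together was 450.3 (348 to 593), and its log2 value ran from 7.14 to 9.10 in the alternative analyses. The unnamed clusters had 28.8 CPM in the interferon-led and 31.1 CPM in the Plcb1-led cells. Within the dendritic-like class 1 cell held 31.6% of the counts, and the level without it was 431 CPM. At equal depth 48.4% of dendritic-like cells had a count (30.2% to 66.9%), against 1.88% of B cell-like cells, and the unthinned shares were 51.6% and 4.38%.

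Cd209a divided the dendritic-like cells. Of the 31 cells, 15 had 10 or more counts of Cd209a and 7 had 10 or more of Clec9a, a lectin of the cross-presenting dendritic lineage, and 0 had both, which allows a share of up to 9.68% of the class. Batf3, a transcription factor of that lineage, reached 10 counts in 11 cells, of which 1 was among the 15 with Cd209a. Clec10a reached it in 8 cells, of which 7 were among the 15, and Clec4a3 in 11, of which 9 were among them. Clec10a and Clec4a3 were not alone in this. Clec4e reached 10 counts in 9 cells, 8 of them among the 15, and Clec4a1 in 11, 8 of them among the 15. For Clec4d it was 5 of 6 cells, for Clec4n 4 of 4 and for Clec5a 1 of 1. Mgl2, the neighbour and close relative of Clec10a, reached it in 3 cells, all among the 15. Clec12a, by contrast, reached 10 counts in 16 cells, 7 with and 9 without Cd209a, and Clec7a in 20, 12 with and 8 without it. H2-Ab1, an MHC class II gene, was at 10 counts or more in 29 of the 31 cells. Of the other dendritic markers counted, Flt3 and Dpp4 each reached 10 counts in 8 cells with and 12 without Cd209a. Itgax did so in 6 with and 9 without it, Ccr7 in 5 and 2, and Fscn1 in 0 and 2. The cutoff of 10 counts and the genes that are not among the 10 receptors were chosen after the values were seen, and these counts describe 1 library of few cells. Counts were not thinned here, and the total per dendritic-like cell ran from 42426 to 694420. The part of depth in the split was not tested.

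**Figure D4:**
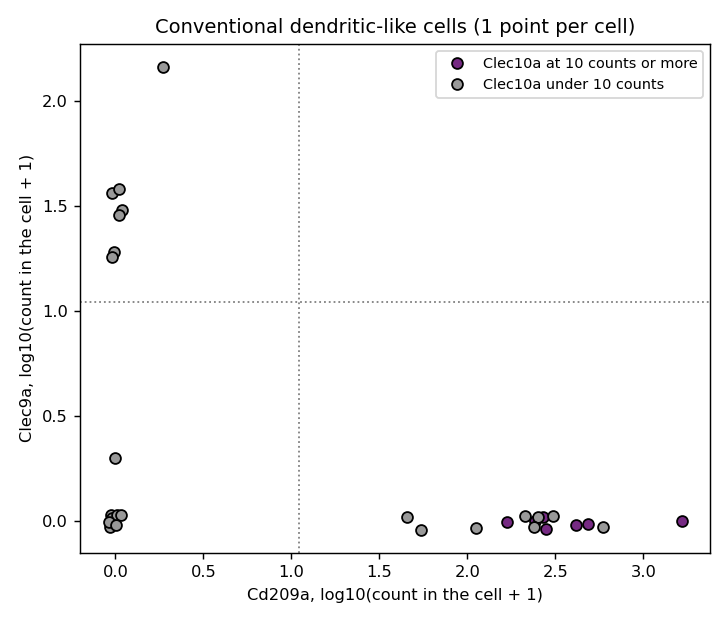
Each point is 1 of the 31 conventional dendritic-like cells, with its count of Cd209a (x axis) and of Clec9a (y axis), both as log10(count + 1) with a small jitter, and dotted lines at 10 counts. Purple points had 10 or more counts of Clec10a. The upper right field is empty, with 15 cells to the right of the line for Cd209a and 7 above the line for Clec9a.

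Across the members, dendritic-like over monocyte-like and macrophage-like cells gave 2 called higher, Cd209a and Clec10a, against a background of 12.3% of 14644 genes, and 6 called lower, against 25.3%. The members' median log2 ratio was -1.39, beside -0.22 over all genes. Clec10a had 87.6 CPM in dendritic-like and 25.2 CPM in monocyte-like and macrophage-like cells, a ratio of 3.48 (3.17 to 3.81). Macrophage-like cells alone stood nearer, at 47.7 CPM. The share of cells with a Clec10a count at equal depth was 29.0% in dendritic-like and 28.9% in macrophage-like cells. The widest of the lower ratios was that of Clec5a, with 4.46 CPM in dendritic-like and 46.2 CPM in the other mononuclear cells, a ratio of 0.0967 (0.0689 to 0.132). Clec4d had a ratio of 0.170 (0.156 to 0.186), Clec4a3 of 0.217 (0.203 to 0.232), Clec4a1 of 0.242 (0.224 to 0.262) and Clec4e of 0.297 (0.282 to 0.314). For Clec4n the ratio was 0.488 (0.446 to 0.532), but 1 dendritic-like cell held 85.8% of its counts. Without the top cell on each side the log2 ratio of Clec4n was -3.55 in place of -1.04, and that of Clec4e, of whose counts 1 cell held 65.5%, was -3.12 in place of -1.75. Clec5a and Clec4d moved likewise, with 1 cell holding 75% and 51.1% of their dendritic-like counts and log2 ratios of -5.21 in place of -3.37 and -3.48 in place of -2.55. The Clec4n call ended under 3 other alternatives, with log2 ratios of -0.99, -0.94 and -0.96.

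**Figure D5:**
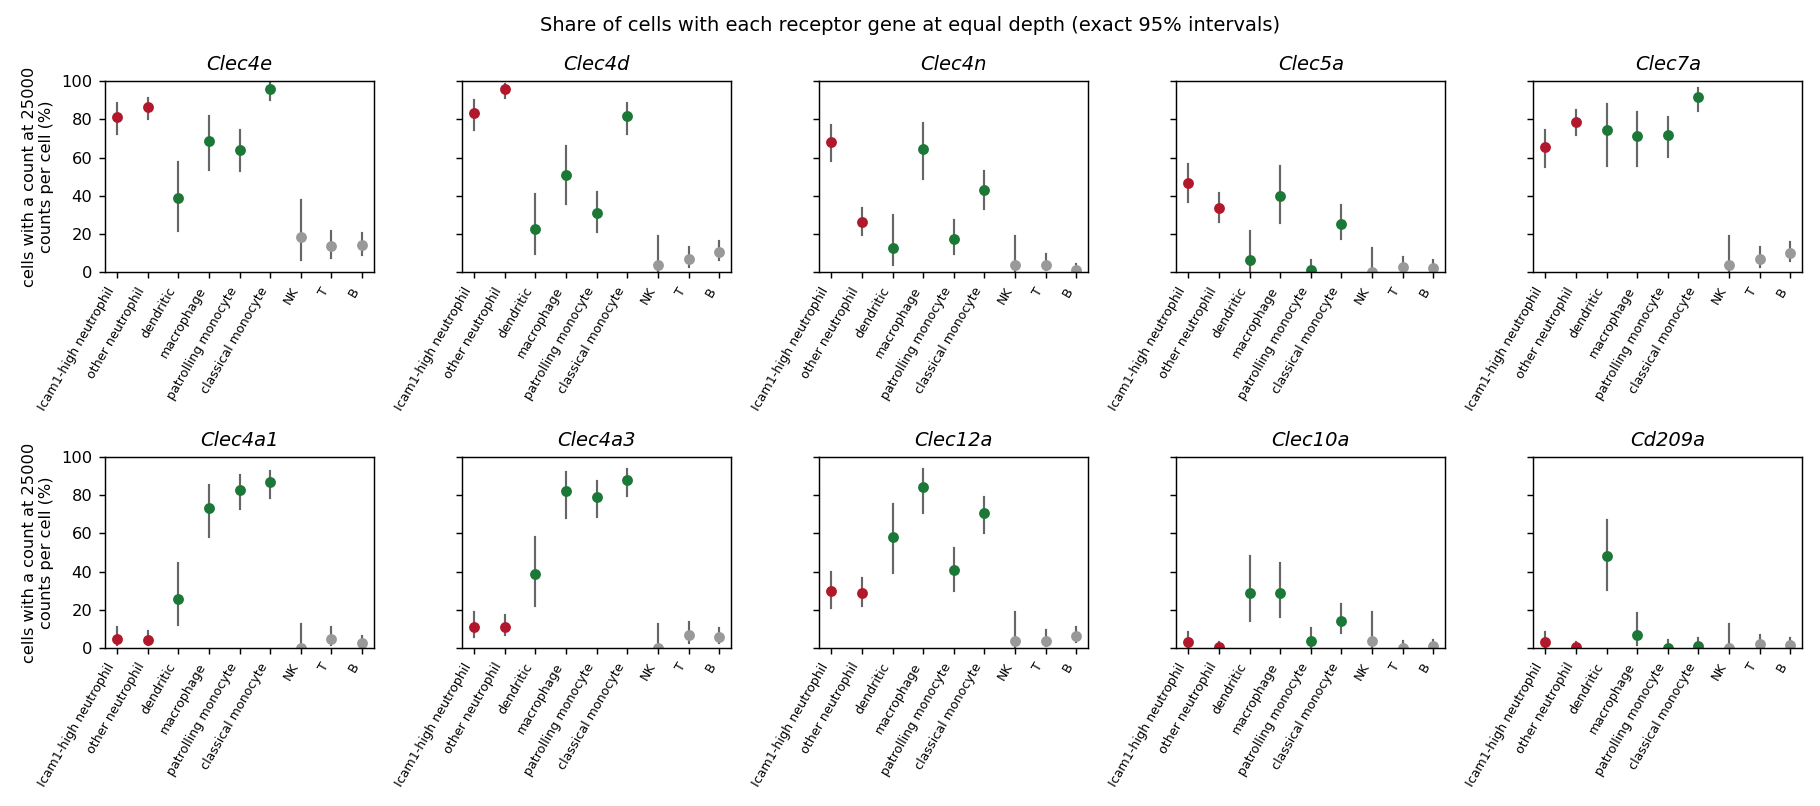
Share of cells with at least 1 count of each receptor gene after thinning to 25000 counts per cell, in percent, with exact 95% intervals, for neutrophil-like (red), mononuclear (green) and lymphoid (grey) classes. The Clec4n panel shows 68.3% of Icam1-high and 26.2% of other neutrophil-like cells, and the Cd209a panel 48.4% of dendritic-like cells with the other 8 classes plotted at or below 6.67%.

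Single cells carried several of these receptors at once. At equal depth the median number of the 10 members with a count was 4 in Icam1-high and 4 in other neutrophil-like cells, 3 in dendritic-like, 6 in macrophage-like, 4 in patrolling and 6 in classical monocyte-like cells, and 0 in B, T and NK cell-like cells. At least 5 members were found in 32 of 101 Icam1-high and 32 of 160 other neutrophil-like cells, against 87.8% of classical monocyte-like and 75.6% of macrophage-like cells. Clec4d and Clec4e, whose products form a complex, were found together in 202 of 261 neutrophil-like cells, which is 85.2% of the cells with Clec4d and 91.8% of those with Clec4e. Over all neutrophil-like cells the shares were 84.3% for Clec4e and 90.8% for Clec4d, so each gene was about as frequent with the other as overall. Their levels within neutrophil-like cells were weakly related (Spearman's rho 0.18 over 261 cells of 1 library). This value pools both neutrophil clusters, of which the Icam1-high had more Clec4e and the other more Clec4d.

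Likeness between genes was described by Pearson's r of log2(CPM + 10) over the 10 clusters with at least 20 cells, which share 1 library, among 6124 genes. Clec4a1 and Clec4a3 were each other's most similar gene, with an r of 0.99. Clec4d and Clec4e had an r of 0.94, Clec4e and Clec7a 0.96, and Clec10a and Cd209a 0.74, while Clec4a1 and Clec5a had 0.15 and Clec5a and Cd209a -0.26. The genes most like each member were Bst1, Siglece and Pira2 for Clec4d (r of 0.99 for the first), Igsf6, Tlr13 and Lrrc25 for Clec4e (1.00), Rab32, AI839979 and Hlx for Clec4n (0.98), and Cxcl3, Alas1 and Ccr1 for Clec5a (0.97). They were Cd300a, Ifitm2 and Gm45717 for Clec7a (0.99), Mpeg1, Asah1 and Plbd1 for Clec12a (0.96), Cxcl16, Batf3 and Sphk1 for Clec10a (0.96), and Zmynd15, Ifi205 and Septin3 for Cd209a (0.97). After its partner, Nupr1 and Tppp3 followed for Clec4a1, and Tppp3 and Cd302 for Clec4a3. These values describe the 10 clusters of this library and not single cells. Batf3, for example, reached 10 counts in 11 dendritic-like cells, 1 of them among the 15 with Cd209a. Clec10a did so in 8 dendritic-like cells, 7 of them among the same 15.

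Of the signalling partners, the 3 adaptors summed to 11677 CPM in Icam1-high and 11616 CPM in other neutrophil-like cells, 3353 CPM in dendritic-like, 6472 CPM in macrophage-like, 10214 CPM in patrolling and 8078 CPM in classical monocyte-like cells. Tyrobp, at 8129 CPM in neutrophil-like cells and 3796 CPM in mononuclear phagocytes with a ratio of 2.14 (2.13 to 2.16), and Hcst, at 488 and 115 CPM with a ratio of 4.26 (4.12 to 4.40), were called higher in neutrophil-like cells, where Clec5a, the member that uses them, was higher too. Fcer1g, the partner of Clec4d, Clec4e and Clec4n, was not called, at 3020.2 CPM in neutrophil-like cells and 3359 CPM in mononuclear phagocytes with a ratio of 0.899 (0.891 to 0.908). Thus 2 of the 3 adaptors were called higher and none lower, beside 14.5% and 37.4% of all genes. In dendritic-like over monocyte-like and macrophage-like cells all 3 adaptors were lower, beside 25.3% of all genes, with a median log2 ratio of -1.36. None of the 3 was called between the neutrophil clusters, beside 26.5% of all genes called higher and 12.5% lower. Clec4n was there 4.73 times as high in Icam1-high cells.

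Of the 7 genes of the Syk and Card9 module, 1, Syk, was called higher and 0 lower in neutrophil-like cells over mononuclear phagocytes, at 291 and 124 CPM, with a median log2 ratio of -0.01 for the list. Over all genes 14.5% were called higher and 37.4% lower, so that 1 of 7 higher was near the share over all genes. In patrolling over classical monocyte-like cells Syk, with a ratio of 2.17 (2.04 to 2.29), and Prkcd, a kinase that acts on Card9, with 2.25 (2.11 to 2.39), were called higher and none lower. These were 2 of the 7 genes, beside 21.3% of all genes called higher and 17.0% lower. Malt1 was higher in Icam1-high neutrophil-like cells, at 115 CPM, against 38.0 CPM in other neutrophil-like cells, and Vav1, at 107 and 53.6 CPM, stayed just under the limit. Malt1 was the only 1 of the 7 called there, beside 26.5% of all genes called higher and 12.5% lower. Of the 3 inhibitory phosphatases, Inpp5d and Ptpn11 were called higher in Icam1-high over other neutrophil-like cells, beside 26.5% of all genes. Inpp5d had 215 and 95.8 CPM, and Ptpn6, at 309 and 210.5 CPM, was not called. Inpp5d and Ptpn11 were also called higher in patrolling over classical monocyte-like cells, beside 21.3% of all genes.

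Of 19 other C-type lectin receptors, 17 were in the matrix, and their summed level was highest in macrophage-like cells, at 1357 CPM. Clec4a2, the dendritic cell immunoreceptor, had 569.8 CPM in macrophage-like cells, 44.6 CPM in patrolling and 375 CPM in classical monocyte-like cells, so that its order of the monocyte classes was the opposite of that of Clec4a1 and Clec4a3. Mrc1, the mannose receptor of tissue macrophages, had 445 CPM in macrophage-like, 1.54 CPM in patrolling and 11.6 CPM in classical monocyte-like cells. Cd302 had 9.62 CPM and Clec4b1 0.186 CPM in neutrophil-like cells, against 147 and 56.3 CPM in macrophage-like cells. In neutrophil-like cells over mononuclear phagocytes, 5 of the 13 such receptors with enough counts were called higher (Clec4b2, Clec1a, Clec1b, Ly75 and Olr1) and 6 lower, beside 14.5% and 37.4% of all genes, with a median log2 ratio of -0.63.

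Cytokines, chemokines and other genes that these receptors are known to switch on were described as a list of output genes. Of 13 with enough counts, 9 were called higher and 2, Il6 and Il10, lower in neutrophil-like cells over mononuclear phagocytes, beside 14.5% and 37.4% of all genes, with a median log2 ratio of 2.22, beside -0.41 over all genes. Cxcl2, a chemoattractant of neutrophils, had 15498 CPM in neutrophil-like cells and 1204 CPM in mononuclear phagocytes, and Il1b had 11328 and 2028 CPM. In Icam1-high over other neutrophil-like cells 6 of 11 were called higher and none lower, beside 26.5% and 12.5% of all genes, among them Ccl3, at 2273 and 984 CPM, while Nfkbiz, at 845 and 496 CPM, was not called. The list was kept out of the clustering, but Il23a, 1 of these 6, is also a leading gene by which the Icam1-high cluster was described. In macrophage-like over monocyte-like cells 9 of 13 were called higher and 1, Il6, lower, beside 14.1% and 16.8% of all genes. Of 4 endogenous ligands, Anxa1 was called higher in neutrophil-like cells over mononuclear phagocytes, at 857 and 354 CPM, beside 14.5% of all genes. Sap130, at 7.44 and 19.8 CPM, and Anxa5, with a ratio of 0.0323 (0.0282 to 0.0367), were called lower, beside 37.4% of all genes. Within neutrophil-like cells Anxa1 was lower in the Icam1-high cluster, at 188 CPM, against 1212 CPM in the other. So was Lgals9, at 69.9 against 171 CPM, beside 12.5% of all genes called lower.

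The authors' cell names carry the tags A951, A952, A953 and A965. The labels do not say which sorted fraction each stands for, and the GFP+ and GFP- fractions could not be set against each other. All 826 barcodes with a single tag name were found in the hashtag library, where the named tag had the highest count in 331 of 331 cells named A951 and 128 of 134 named A952, but in 14 of 114 named A953 and 17 of 247 named A965. The values by tag name therefore only describe cells so named. In Icam1-high neutrophil-like cells Clec4n had 628 CPM in cells named A951, 938 in A952, 505 in A953 and 784 in A965, against 155, 251, 36.4 and 99.0 CPM in other neutrophil-like cells of the same names. Clec4n was thus higher in the Icam1-high cluster under each of the 4 names. Clec4d in other neutrophil-like cells lay between 1370.3 CPM in A952 and 1939 CPM in A953, and Clec4e between 1026 CPM in A965 and 1250.2 CPM in A953. In Icam1-high cells Clec4e was lowest in those named A965, at 980.4 CPM in 8 cells, and 2277 CPM in 54 cells named A951. The median mitochondrial share of Icam1-high cells was 5.01% in those named A951 and 0.800% in those named A952. Cd209a in dendritic-like cells had 304 CPM in 7 cells named A951, 980.1 CPM in 9 named A952 and 383 CPM in 11 named A965, and Clec10a had 132, 113 and 10.1 CPM in the same cells.

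Among the members, values that were not whole numbers were most frequent for Clec10a. Of its values above 0, 32.6% were not whole numbers, against at most 4.88% for the other members, and the fractional part made up 0.812% of its counts. For Clec4a2 the share of values that were not whole was 34.6%. In a GENCODE transcript set, whose match to the authors' annotation was not checked, runs of 50 bases were compared between genes. Of those of Clec10a 9.02% also occur in another gene, 8.49% in Mgl2, against none for 7 members, 0.686% for Clec4n and 0.402% for Clec12a. Clec4a3, Cd209a and Clec4d, with no shared run, still had 4.88%, 3.92% and 2.12% of values that were not whole. Whether shared sequence gave the fractional values was not tested.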

How the data were processed

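The deposited transcriptome matrix holds estimated counts per gene and cell from the authors, unscaled and partly fractional, and the hashtag table holds whole-number counts per tag and barcode as deposited. Per the submitters' processing notes, the tools were cutadapt 4.1, STAR, STARsolo 2.7.10b and R 4.3.1 and the build was GRCm39 (the step of each tool is not stated), and the labels' protocols name BD Rhapsody with TAS-Seq amplification. Cells with under 500 counts, under 200 genes or over 25% mitochondrial counts were to be left out, and only the last limit removed cells. Cells were scaled to 10000 counts, and 2000 variable genes, 30 components, 15 neighbours and Leiden resolution 1 were used in scanpy 1.11.5 with Python 3.11.15, without the 72 measured genes of the receptor and pathway lists. A cluster was named when at least 3 markers reached 50 CPM and were 2-fold above the other cells, and leading genes were ranked by fold with 20 CPM added. No doublet caller was run, and cells the authors named doublet were kept in the main analysis. Counts were summed per class, compared between classes for genes with at least 50 counts over both classes, and thinned to 25000 per cell for shares. Intervals were exact Poisson or Clopper-Pearson, and a count of 0 was given the limit of 3 counts. The ratio calculation was tested on simulated counts. The receptors, the pathway lists and the markers were chosen with earlier results of these data known. Named pathway genes were the up to 4 with the highest level in the class where their list was highest, and all adaptors. Promoter windows came from RefSeq.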

Additional observations from a re-analysis of the deposited data

How the results depend on the processing

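The 12 counts of receptors called higher or lower were recomputed with at most 10% mitochondrial counts, without cells named doublet, at clustering resolutions 0.5 and 2, with the receptor and pathway genes left in the clustering, with each cell weighted alike and without the top cell on each side. Cells named A951, A952 or A965 alone were added after the data were seen, as was the rule that a cluster's name needs a marker among its leading genes or at least 0.5 of its marker list. Of 118 values, 105 stayed within 1.5 times the main count and 13 moved. Receptors lower in macrophage-like over monocyte-like cells, 1 in the main analysis, were 0 with at most 10% mitochondrial counts, without doublets, at resolution 2, with the lists left in, with cells weighted alike and in A952 alone, and 3 in A951 alone; those higher, 3 in the main analysis, were 5 with cells weighted alike. Receptors lower in Icam1-high over other neutrophil-like cells, 0 in the main analysis, were 1 without doublets, 3 at resolution 2 and 1 in A951 and in A965 alone. Receptors higher in dendritic-like over monocyte-like and macrophage-like cells, 2 in the main analysis, were 1 in A965 alone. The log2 ratio of Clec4a1 in Icam1-high over other neutrophil-like cells was -0.77 at resolution 2, that of Cd209a in macrophage-like over monocyte-like cells -0.79 in A951 alone, and that of Clec10a in dendritic-like over the other mononuclear cells -0.73 in A965 alone. In A965 alone Clec4e was not called in neutrophil-like over mononuclear cells, at 0.79. The cause was not tested. Resolution 0.5 gave 1 neutrophil cluster and so no value between Icam1-high and other cells. No paired analysis was possible because there was 1 transcriptome library. Few counts limit Clec10a and Cd209a in neutrophil-like cells and Cd209a in monocyte-like cells.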
